A study of Mus musculus with 4 samples.

Results

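The 9 genes described here carry the interferon signal from the cell surface to the nucleus: the receptor chains Ifnar1, Ifnar2, Ifngr1 and Ifngr2, the signal transducer Stat2, and the interferon regulatory factors Irf1, Irf3, Irf7 and Irf9. They were chosen by name, with earlier results of these data known, so their counts beside all genes are a description. Their rows were found by matching Ensembl identifiers to symbols in GENCODE M21, and all 9 were present among the 34685 genes of the table. Each of the 9 reached at least 1 FPKM in at least 1 line, as did 14165 entries in all. FPKM is the number of sequenced fragments of a gene corrected for transcript length and sequencing depth, a level that can be compared between genes as well as between lines.

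RNA was sequenced from 4 cell lines of mouse oral squamous cell carcinoma, with 1 library per line. AOC3 was isolated from the primary oral tumor of mouse 3 and AOC3-LN from a lymph node metastasis of the same mouse, and AOC11 and AOC11-LN came in the same way from mouse 11. Both were male C57BL/6 mice, young adults at the start, whose buccal mucosa was painted by cotton swab with the carcinogen DMBA until a tumor was overt, for longer in mouse 11 than in mouse 3. Every line was passed once under the skin of C57BL/6 mice, cleared of fibroblasts with a depletion kit and grown in DMEM/F12 with serum. No line received interferon, so the levels are those of unstimulated cultured cells. A difference between a pair of lines is a difference between single libraries and has no replicate check, and each pair of lines is a model of 1 tumor in 1 animal.

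Type I interferons bind a receptor made of IFNAR1 and IFNAR2, and interferon gamma binds one made of IFNGR1 and IFNGR2. Kinases of the JAK family on the receptor tails phosphorylate STAT proteins. STAT2 acts with IRF9 in the complex ISGF3, which binds the interferon-stimulated response element (ISRE), while pairs of STAT proteins bind the gamma-activated site (GAS). IRF3 and IRF7 induce interferon genes after nucleic acids are sensed in the cell, and IRF1 drives antigen presentation and other interferon gamma genes. In epithelia the pathway is known for antiviral defense and for the display of antigens to T cells.

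The promoter sequences of the 3 genes below are shown because they differ in these response elements, and because Irf1 had the widest range over the lines on the log2 scale used below and Irf7 the widest ratio of FPKM. All 9 genes matched RefSeq entries (GRCm38.p6), with 11 windows of 300 bases between them, from 250 bases before to 50 bases after a transcription start. The 250 bases before the start are printed 5′ to 3′ along the gene's strand: chr10:128270248-128270497 (plus strand) for Stat2, chr11:53769764-53770013 (plus strand) for Irf1 and chr7:141266425-141266674 (minus strand) for Irf7. Capitals mark a match to the ISRE letters (GAAA, any 2 bases, then GAAA) or the GAS letters (TTC, any 3 bases, then GAA), searched on both strands.
Stat2: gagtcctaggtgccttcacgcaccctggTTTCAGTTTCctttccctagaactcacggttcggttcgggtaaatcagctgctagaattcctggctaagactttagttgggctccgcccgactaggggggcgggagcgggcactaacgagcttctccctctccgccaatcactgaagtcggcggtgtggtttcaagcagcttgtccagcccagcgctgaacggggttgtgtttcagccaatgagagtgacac
Irf1: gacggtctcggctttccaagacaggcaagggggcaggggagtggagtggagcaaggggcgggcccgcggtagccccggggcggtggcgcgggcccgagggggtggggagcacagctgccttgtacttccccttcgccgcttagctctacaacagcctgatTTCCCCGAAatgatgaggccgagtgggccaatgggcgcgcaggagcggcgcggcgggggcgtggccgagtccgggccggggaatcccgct
Irf7: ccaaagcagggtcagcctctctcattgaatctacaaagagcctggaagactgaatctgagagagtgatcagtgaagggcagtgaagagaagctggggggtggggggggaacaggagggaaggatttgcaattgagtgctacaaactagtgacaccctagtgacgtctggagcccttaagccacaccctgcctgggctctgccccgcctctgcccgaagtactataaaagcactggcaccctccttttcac
The Stat2 window held 1 ISRE match, read on the other strand, at positions -222 to -213 from the start site at 0. The Irf1 window held 1 GAS match at positions -90 to -82, and no match was found in the Irf7 window. GAS matches also lay in the windows of Ifnar2 (positions -214 to -206) and Ifnar1 (positions -5 to 3). In all, 1 of the 11 windows held the ISRE letters and 3 held the GAS letters, against 3.44% and 8.3% of the 32851 windows of 27025 genes in the same reference. Neither motif matched in a downstream window of Irf1 or in the windows of Irf3, Irf9, Ifngr1 and Ifngr2.

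The libraries were alike in depth. Steps in the low FPKM values gave estimates of 28200000 to 33700000 fragments per library, with the lowest in AOC3-LN, and between 9211 entries (AOC11-LN) and 10813 entries (AOC3-LN) were listed at 0. From the depth and the length of the shortest protein-coding transcript, a 95% counting interval was set around each FPKM value, which covers counting error only. The shortest transcript gives the fewest fragments and so the widest interval. For Ifnar1 in AOC3 it gives 120 fragments, against 1781 by the longest. Lines described below as within counting error are so by the shortest transcript, and intervals by the longest were not set. All 7 epithelial markers examined reached 1 FPKM in at least 1 line, with summed levels of 2740 to 3490 FPKM. Epcam, Cdh1, Krt8, Krt18 and Krt14 had at least 144 FPKM in every line, while Krt5 (499, 275, 4.99 and 17.0 FPKM in AOC3, AOC3-LN, AOC11 and AOC11-LN) and Trp63 (1.69, 2.1, 0.0848 and 0.841 FPKM) were low in the AOC11 lines. None of 7 fibroblast, 5 T cell or 4 endothelial markers reached 1 FPKM (highest values 0.407, 0.0422 and 0.374). Of 7 macrophage markers 3 did, Csf1r, Cd68 and Cd14, and the summed level of the 7 was 16.8 to 33.8 FPKM. Csf1r had 0.995, 0.435, 20.8 and 6.01 FPKM in AOC3, AOC3-LN, AOC11 and AOC11-LN, so it was higher in the AOC11 lines. Cd68 ranged from 4.45 to 13.0 FPKM and Cd14 from 6.27 to 8.55. Adgre1 was at 0 in every line and Ptprc did not exceed 0.064 FPKM. Of 4 plasmacytoid dendritic cell markers only Tcf4 and Bst2, which is itself an interferon-stimulated gene, reached 1 FPKM, and Siglech and Ccr9 did not exceed 0.0523 and 0.007 FPKM. In these libraries fewer cells carrying a transcript and less of the transcript per cell cannot be told apart.

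The interferon genes that had an entry were close to silent. Of 8 interferon ligands looked for, 6 had an entry, and none reached 1 FPKM in any line. Apart from Ifnab, no interferon alpha gene (symbol starting Ifna) had an entry, so most of the type I family was not measured. Ifng was listed at 0 in every line. Ifnb1 (0.0522 FPKM) and Ifne (0.122 FPKM) were above 0 only in AOC11-LN, Ifnk (0.0924 FPKM) only in AOC3 and Ifnab (0.0391 FPKM) only in AOC3-LN. Ifnz ranged from 0.0746 to 0.185 FPKM.

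Ifnar1 (ENSMUSG00000022967.13, chr16:91485238-91507441, plus strand, mm10), a chain of the type I receptor, was the most even of the 9 genes. It was at 14.1 FPKM in AOC3 and 12.7 in AOC3-LN, against 9.8 in AOC11 and 9.95 in AOC11-LN. Both AOC3 lines lay above both AOC11 lines, but no neighbors in this order differed beyond their counting intervals, which rest on the shortest transcript. The ratio of AOC3 to AOC11 was 1.44 (95% counting interval 1.08 to 1.92) and that of AOC3-LN to AOC11-LN 1.27 (0.947 to 1.72).

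Ifnar2 (ENSMUSG00000022971.18, chr16:91372783-91405589, plus strand), the other type I chain, reached 26.0 and 12.4 FPKM in the mouse 3 lines AOC3 and AOC3-LN, and 14.8 and 16.6 FPKM in the mouse 11 lines AOC11 and AOC11-LN. AOC3 stood above the other 3 lines, which did not differ from their neighbors beyond counting error, although AOC3-LN and AOC11-LN differed from each other (ratio 0.743, 0.56 to 0.986). The ratio of AOC3-LN to AOC3 was 0.475 (0.366 to 0.617). On the FPKM scale the ratio of Ifnar1 to Ifnar2 was 0.543 in AOC3, 0.661 in AOC11, 0.599 in AOC11-LN and 1.03 in AOC3-LN, so the chains were near parity only in AOC3-LN. A same-strand gene model, Gm21970, shares 315 exon bases with Ifnar2, and its own level did not exceed 0.184 FPKM.

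Ifngr1 (ENSMUSG00000020009.13, chr10:19591949-19610229, plus strand), the ligand-binding chain of the interferon gamma receptor, measured 14.8 FPKM (AOC3) and 7.65 FPKM (AOC3-LN) in mouse 3, 19.4 FPKM (AOC11) and 18.9 FPKM (AOC11-LN) in mouse 11. AOC3-LN was the low line, and the AOC11 lines lay within counting error of each other. The ratio of AOC3-LN to AOC3 was 0.517 (0.461 to 0.579), and that of AOC11-LN to AOC11 was 0.975 (0.901 to 1.06).

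Ifngr2 (ENSMUSG00000022965.8, chr16:91547072-91565623, plus strand), the signaling partner chain, was at 7.27 FPKM in AOC3 and 3.06 in AOC3-LN, against 17.4 in AOC11 and 11.7 in AOC11-LN. All neighbors in this order were separated beyond counting error, with both AOC3 lines below both AOC11 lines and the lymph node line below the primary line in each mouse. The ratio of AOC3 to AOC11 was 0.417 (0.386 to 0.452) and that of AOC3-LN to AOC11-LN 0.261 (0.231 to 0.296). The ratio of Ifngr1 to Ifngr2 on the FPKM scale was 2.04 in AOC3 and 2.5 in AOC3-LN, against 1.12 in AOC11 and 1.62 in AOC11-LN. Ifngr2 therefore was the scarcer chain in each line, most of all in AOC3-LN.

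Ifnar2, Il10rb, Ifnar1 and Ifngr2 lie in that order on the plus strand of chromosome 16, within 193 kb. Their levels did not follow a common order of lines. Il10rb is a chain shared by the interleukin-10 and interferon lambda receptors. It reached 11.9 and 7.74 FPKM in the mouse 3 lines AOC3 and AOC3-LN. The mouse 11 lines AOC11 and AOC11-LN reached 8.12 and 8.39 FPKM, with no interval set. By FPKM Il10rb was thus lowest in AOC3-LN, like Ifnar2 and Ifngr2. On the normalized scale used for the comparisons below, this held for Ifnar2 and Ifngr2 and not for Il10rb. There Il10rb was slightly higher in AOC3-LN than in AOC11-LN (log2 difference 0.02). Ifnlr1, the specific chain of the interferon lambda receptor, had 3.53, 2.4, 4.71 and 4.35 FPKM in the same order of lines.

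Each of the 4 JAK kinases reached 1 FPKM in at least 1 line. Jak1, which serves both interferon receptor types, measured 36.8 FPKM (AOC3) and 33.9 FPKM (AOC3-LN) in mouse 3, 26.7 FPKM (AOC11) and 25.2 FPKM (AOC11-LN) in mouse 11. Jak2, which acts at the interferon gamma receptor, had 8.27, 6.83, 8.3 and 17.7 FPKM in that order, and Tyk2, which acts at the type I receptor, had 6.63, 4.93, 6.6 and 7.75. AOC11-LN was high for Jak2, whereas Jak1 was somewhat higher in both AOC3 lines. Jak3, which is best known from lymphoid cells, did not exceed 3.43 FPKM and was at 0.748 in AOC3-LN.

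Stat2 (ENSMUSG00000040033.16, chr10:128270559-128292849, plus strand) was at 6.72 FPKM in AOC3 and 3.59 in AOC3-LN, against 5.4 in AOC11 and 9.18 in AOC11-LN. The lymph node lines held the extremes, and all neighbors in the order differed beyond counting error. The ratio to the primary line was 0.535 (0.478 to 0.6) in AOC3-LN and 1.7 (1.55 to 1.86) in AOC11-LN.

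Irf9 (ENSMUSG00000002325.15, chr14:55603571-55610030, plus strand), the DNA-binding partner of STAT2, reached 2.23 and 1.25 FPKM in the mouse 3 lines AOC3 and AOC3-LN, and 3.9 and 6.56 FPKM in the mouse 11 lines AOC11 and AOC11-LN. Both AOC3 lines lay below both AOC11 lines, with every neighbor beyond counting error. The ratio was 0.571 (0.384 to 0.85) between AOC3 and AOC11 and 0.191 (0.118 to 0.311) between AOC3-LN and AOC11-LN. The FPKM ratio of Stat2 to Irf9 was 3.02 in AOC3 and 2.86 in AOC3-LN, against 1.39 in AOC11 and 1.4 in AOC11-LN. These values were close within each mouse and apart between the mice. No interval was set for this ratio, and Irf9 in AOC3-LN rests on about 19 to 99 fragments. Irf9 shares 123 exon bases on the same strand with Rnf31, which had 5.97 to 8.43 FPKM.

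Among other STAT genes, Stat3 had 15.1 and 11.1 FPKM in AOC3 and AOC3-LN and 18.5 and 19.2 FPKM in AOC11 and AOC11-LN. Stat6, the transducer of interleukin-4, had 46.8, 39.8, 34.1 and 31.9 FPKM in that order. Stat5a ranged from 0.0731 FPKM in AOC3-LN to 4.75 in AOC11-LN, and Stat5b from 0.86 in AOC3-LN to 9.62 in AOC11. Stat4 did not exceed 0.069 FPKM.

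Irf1 (ENSMUSG00000018899.16, chr11:53770014-53778374, plus strand) was the most abundant of the 9 genes in AOC3, AOC11 and AOC11-LN. It was at 68.1 FPKM in AOC3 and 21.1 in AOC3-LN, against 66.9 in AOC11 and 96.5 in AOC11-LN. The primary lines were within counting error of each other, with a ratio of 1.02 (0.922 to 1.12), while AOC3-LN lay far below them and AOC11-LN lay above. The ratio to the primary line was 0.309 (0.266 to 0.36) in AOC3-LN and 1.44 (1.31 to 1.58) in AOC11-LN, and the lymph node lines differed by a ratio of 0.218 (0.189 to 0.253). Irf1 thus held its AOC3 level in the other primary line and not in the lymph node line of the same mouse.

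Irf3 (ENSMUSG00000003184.15, chr7:44997648-45002848, plus strand) reached 28.9 and 28.3 FPKM in the mouse 3 lines AOC3 and AOC3-LN, and 29.1 and 50.1 FPKM in the mouse 11 lines AOC11 and AOC11-LN. AOC3, AOC3-LN and AOC11 did not differ from their neighbors beyond counting error, and AOC11-LN stood above them, at 1.73 times AOC11 (1.44 to 2.07). Bcl2l12, on the opposite strand, shares 88 exon bases with Irf3 and had 9.26, 8.15, 11.9 and 16.4 FPKM in the same order of lines, also highest in AOC11-LN.

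Irf7 (ENSMUSG00000025498.15, chr7:141262706-141266481, minus strand), the IRF that is itself strongly interferon-inducible, was the scarcest of the 9 genes in every line. It measured 1.27 FPKM (AOC3) and 0.288 FPKM (AOC3-LN) in mouse 3, 1.19 FPKM (AOC11) and 3.54 FPKM (AOC11-LN) in mouse 11, the widest relative range of the set at 12.3-fold. The value in AOC3-LN rests on about 5 to 17 fragments. The primary lines did not differ beyond counting error (ratio 1.07, 0.606 to 1.88), and the ratio to the primary line was 0.226 (0.0867 to 0.591) in AOC3-LN and 2.97 (1.85 to 4.77) in AOC11-LN. The ratio of Irf3 to Irf7 on the FPKM scale was 22.7 in AOC3, 24.4 in AOC11 and 14.2 in AOC11-LN, and 98.1 in AOC3-LN. Irf7 shares 45 exon bases with Phrf1 on the opposite strand, which had at least 26.2 FPKM in every line.

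**Figure D1:**
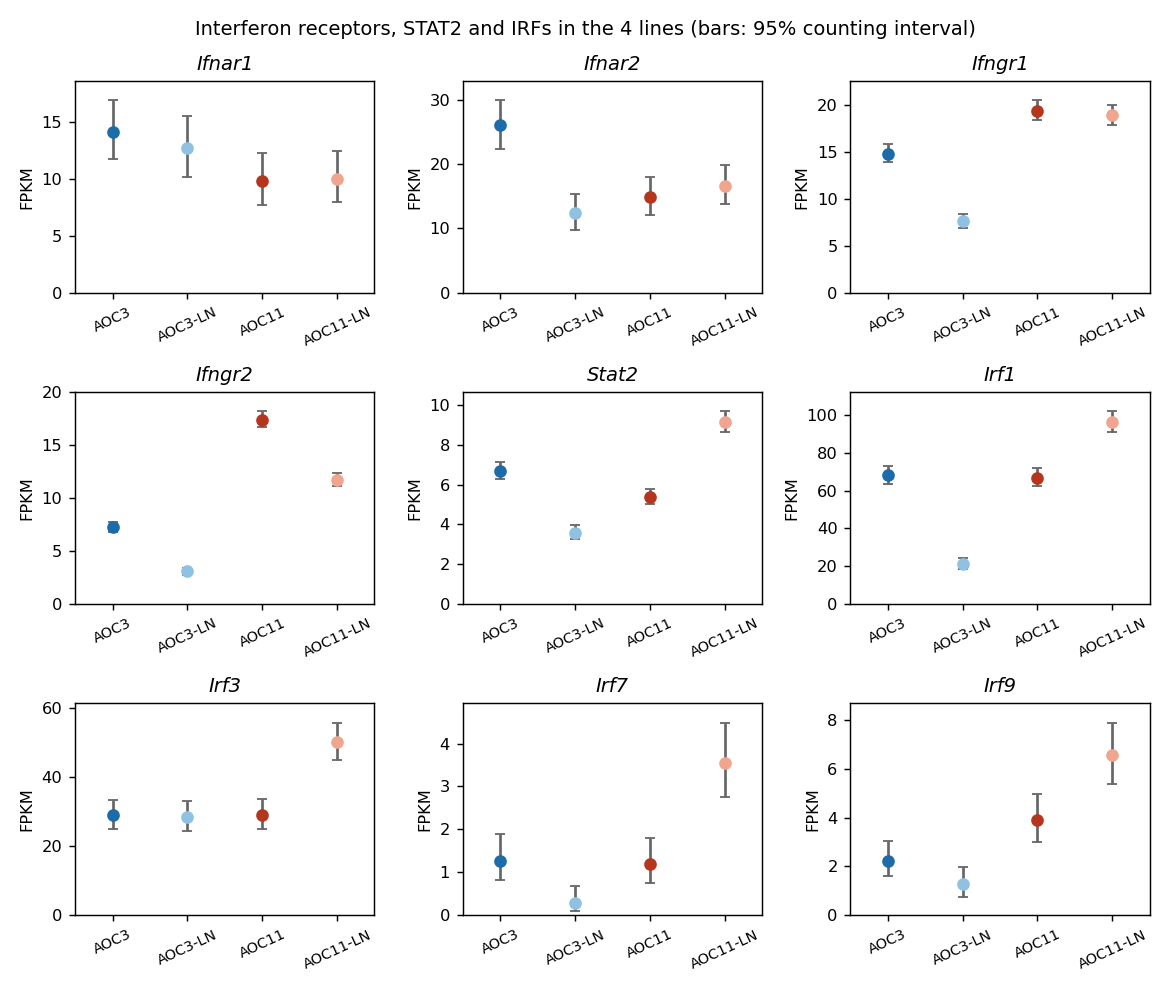
FPKM (linear vertical axes from 0) of the 9 genes in each of the 4 lines, where each point is 1 library and each bar its 95% counting interval. AOC3-LN held the lowest FPKM of 8 of the 9 genes, Ifnar1 being the exception, and AOC11-LN the highest of 5.

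Among other IRFs, Irf2, which restrains IRF1 at shared sites, was at 21.4 FPKM in AOC3 and 16.0 in AOC3-LN, against 17.3 in AOC11 and 18.0 in AOC11-LN. Irf5 had 2.84, 0.776, 1.81 and 2.25 FPKM in that order, and Irf4 did not exceed 0.0129. Of these, Irf2 and Irf5 had their lowest FPKM in AOC3-LN. On the normalized scale used for the comparisons below, this held for Irf5 and not for Irf2.

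Lowest FPKM in AOC3-LN was found for 30.4% of all genes that passed the filter and highest FPKM in AOC11-LN for 32.1%, against 8 and 5 of the 9 genes. On the normalized scale used for the comparisons below the shares were 23.5% and 26.9% of all genes, against 7 and 5 of the 9, with Irf3 no longer lowest in AOC3-LN. For 4 genes, Stat2, Irf1, Irf7 and Irf9, AOC11-LN was highest and AOC3-LN lowest at once, an order that 11.2% of all genes had. These 4 include Stat2 and Irf9, which act together in ISGF3, and Irf7, a gene that ISGF3 is known to induce. They were picked by their order of lines, and a role of ISGF3 in that order was not tested.

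For the comparisons, FPKM plus a pseudocount of 1 was log2-transformed and quantile-normalized, and a difference above 1 or below -1 was counted. On this scale a difference of a low gene such as Irf7 is understated. Between the AOC3 lines and the AOC11 lines, each taken as the mean of its primary and lymph node line, Ifngr2 (-1.30) and Irf9 (-1.13) passed the threshold, both lower in the AOC3 lines. That is 2 of 9 genes, against 11.1% of all 14165 genes, 6.0% lower in the AOC3 lines past the threshold and 5.1% higher. Irf1 (-0.97), Irf7 (-0.88) and Ifngr1 (-0.71) had the next largest differences, and only Ifnar1 (0.48) and Ifnar2 (0.27) had positive ones. Without AOC3-LN the differences of Ifngr2 and Irf9 were -0.86 and -0.93, inside the threshold, and without AOC11-LN that of Irf9 was -0.87. Without AOC3, Irf1 (-1.80), Irf7 (-1.23) and Ifngr1 (-1.12) also passed it, and without AOC11, Irf7 (-1.26) and Irf1 (-1.22) did. Both AOC3 lines lay below both AOC11 lines on the normalized scale for 4 genes (Ifngr1, Ifngr2, Irf7 and Irf9) and above them for Ifnar1, orders that 26.7% and 26.3% of all genes had. Irf7 had this order only after normalization, since its FPKM was slightly higher in AOC3 than in AOC11.

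In limma, with the primary and lymph node line of each mouse standing for replicates and Benjamini-Hochberg adjustment over all genes, 0 of the 9 genes had an adjusted p under 0.05, against 0.205% of all genes (29 of 14165). At an unadjusted p under 0.05 limma gave 2 of the 9, Ifngr2 and Irf9, against 18.7% of all genes. The lowest adjusted p values were 0.184 for Irf9 (log2 difference -1.13, standard error 0.32) and 0.194 for Ifngr2 (-1.30, standard error 0.38) in limma, and those of the other genes ranged from 0.277 for Ifnar1 to 0.699 for Ifnar2. An exact 2-sided permutation of 2 lines against 2 cannot go below p = 0.333. The lines of a mouse are not separate animals, so the limma test measures the spread between these lines only.

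Between the primary lines, AOC3 and AOC11, Ifngr2 (-1.12) was the only one of the 9 genes past the threshold, against 11.9% of all genes, 5.69% lower in AOC3 and 6.25% higher. The median difference of the 9 genes was 0.08, beside -0.02 for all genes. Ifnar2 (0.84) and Ifnar1 (0.51) were higher in AOC3 and Irf9 (-0.66) lower, none of them past the threshold. Irf1 (0.10), Irf3 (0.08) and Irf7 (-0.12) lay near 0, and the sign of the last 2 turned without scaling between the lines, to -0.01 for Irf3 and 0.05 for Irf7.

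Between the lymph node lines more of the 9 genes passed the threshold. AOC3-LN was below AOC11-LN past the threshold for 5 of the 9 genes, Irf1 (-2.04), Irf7 (-1.64), Irf9 (-1.59), Ifngr2 (-1.48) and Ifngr1 (-1.10), against 16.3% of all genes, 8.69% lower in AOC3-LN and 7.58% higher. Stat2 (-0.99) and Irf3 (-0.75) followed, Ifnar2 was at -0.29, and Ifnar1 (0.44) was the only gene higher in AOC3-LN. The median of the 9 genes was -1.10, beside 0.03 for all genes. Stat2 passed the threshold with a pseudocount of 0.1 (-1.14) and without scaling between the lines (-1.15).

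**Figure D2:**
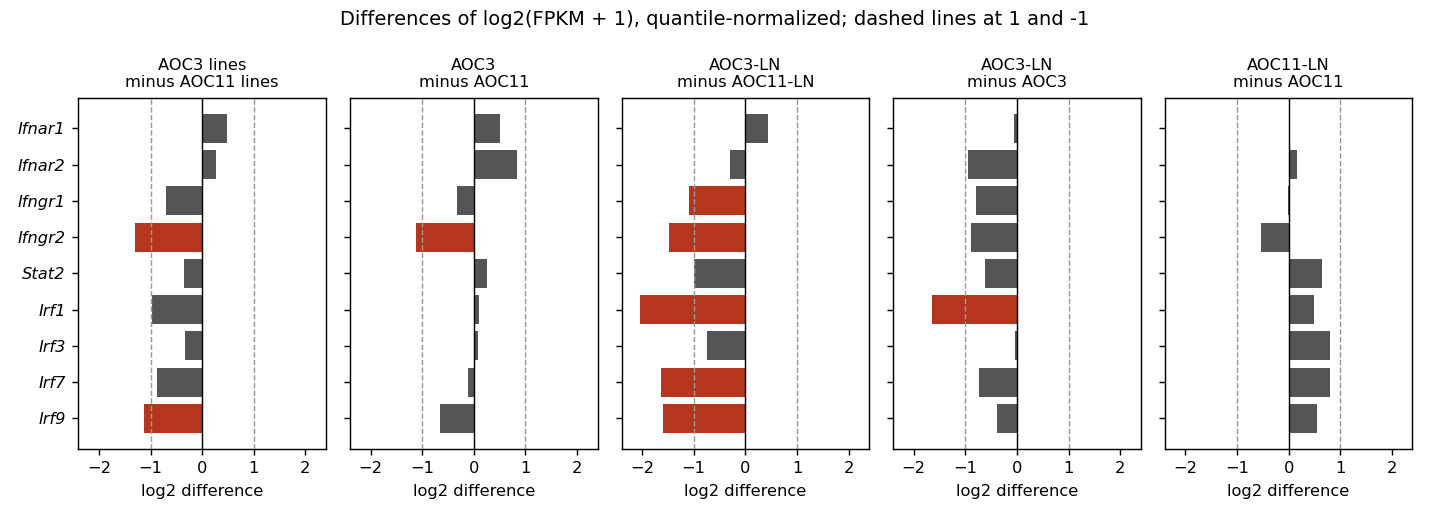
Differences of quantile-normalized log2(FPKM + 1) for the 9 genes (vertical) in 5 comparisons (panels), as bars from 0 with dashed lines at the threshold of 1 and -1 and bars past it in red. Each bar compares single libraries, or means of 2 in the first panel, and 5 genes passed the threshold between the lymph node lines against 1 between the primary lines.

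Within mouse 3, AOC3-LN was below AOC3 for all 9 genes, by differences from -0.03 for Irf3 to -1.65 for Irf1. The share of all genes lower in AOC3-LN by any amount was not counted. For Irf3 (0.98, 0.799 to 1.2) and Ifnar1 (0.899, 0.686 to 1.18) the FPKM ratio lay within counting error of 1, by the shortest transcript. Irf1 alone passed the threshold, against 5.53% of all genes, 3.42% lower in AOC3-LN and 2.11% higher. Ifnar2 (-0.95), Ifngr2 (-0.89), Ifngr1 (-0.80), Irf7 (-0.73), Stat2 (-0.61) and Irf9 (-0.38) lay between, and Ifnar1 was at -0.06. The median was -0.73, beside 0.02 for all genes. With a pseudocount of 0.1, which understates low genes less, Irf7 was at -1.60 and Ifngr2 at -1.06, both past the threshold. The sign for Irf3 turned to 0.06 with scaling by the median.

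Within mouse 11, 0 of the 9 genes passed the threshold, against 8.11% of all genes, 4.97% higher in AOC11-LN and 3.14% lower. Irf7 and Irf3 were both higher in AOC11-LN by 0.80, Stat2 by 0.65, Irf9 by 0.55 and Irf1 by 0.50. The receptor genes were near or below 0, with 0.17 for Ifnar2, 0.00 for Ifnar1, -0.02 for Ifngr1 and -0.53 for Ifngr2. Irf7 passed the threshold with a pseudocount of 0.1 (1.13), without scaling (1.05) and with scaling by the median (1.04). The signal transducer and the IRFs were thus higher in the lymph node line of mouse 11 on counting intervals, and none of the receptor chains was.

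For 7 of the 9 genes the lymph node line was below the primary line in mouse 3 and above it in mouse 11, an order that 23.3% of all genes had. Ifnar1 was among the 7 with differences that round to -0.06 and 0.00. The receptor chains Ifngr1 and Ifngr2 were the exceptions, with negative differences in both mice. That of Ifngr1 in mouse 11 was -0.02, and its FPKM ratio lay within counting error of 1.

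**Figure D3:**
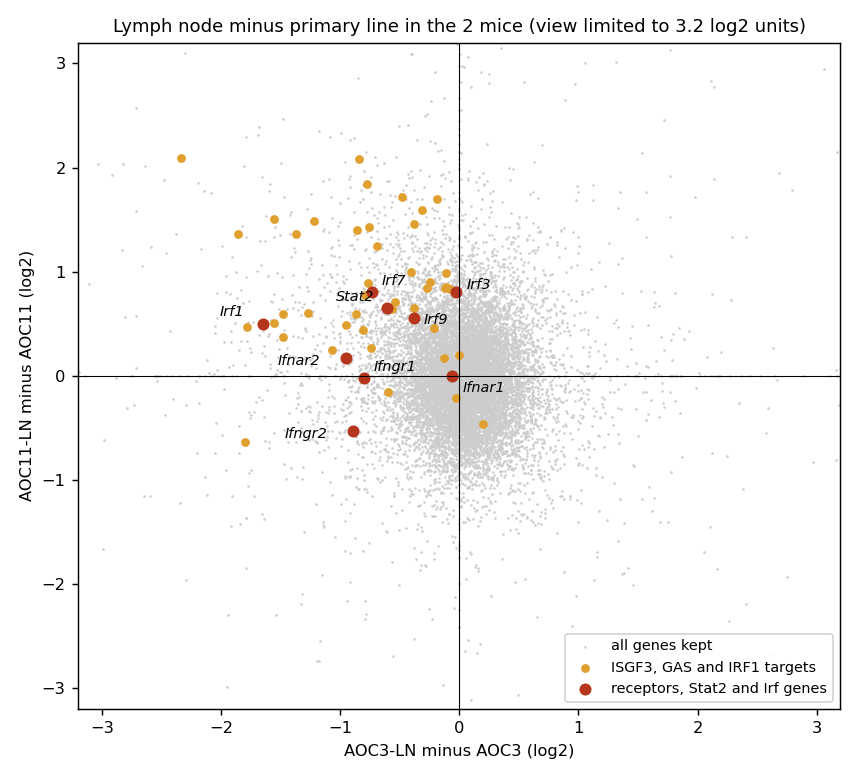
Lymph node minus primary line in mouse 3 (horizontal) and in mouse 11 (vertical), as log2 differences, for all genes that passed the filter (gray), listed targets of ISGF3, GAS and IRF1 (orange) and the 9 genes (red). Irf1, at -1.65 and 0.50, lies farthest left of the 9, and genes beyond 3.2 log2 units are outside the view.

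Among the kinases and other STATs, 0 of 4 kinases passed the threshold between the AOC3 and AOC11 lines, whereas Stat5a (-1.79) and Stat5b (-1.78) were lower in the AOC3 lines past it. Of all genes 11.1% passed it, 6.0% of them all being lower in the AOC3 lines. Between the lymph node lines Jak2 (-1.16), Jak3 (-1.14), Stat5a (-2.30) and Stat5b (-1.97) were lower in AOC3-LN past the threshold, beside 8.69% of all genes. Of the other receptors of the family 3 passed the filter, and none of them passed the threshold in any comparison.

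The negative regulators of the pathway did not follow the 9 genes as a group. All 13 on the list passed the filter, and between the AOC3 and AOC11 lines 3 were lower past the threshold (Usp18 -1.62, Cish -1.23, Ptpn6 -1.15) and 1 was higher (Socs3 1.19), beside 6.0% and 5.1% of all genes. Usp18, which removes ISG15 and blocks the type I receptor at IFNAR2, reached 1.2 and 0.175 FPKM in the mouse 3 lines AOC3 and AOC3-LN, and 1.19 and 9.43 FPKM in the mouse 11 lines AOC11 and AOC11-LN. It is a target of ISGF3 and shared with Irf7 the highest level in AOC11-LN and the lowest in AOC3-LN. Socs3, an inhibitor of JAK kinases at cytokine receptors, had 13.4, 14.4, 7.34 and 4.82 FPKM, highest in AOC3-LN and lowest in AOC11-LN. Between the lymph node lines 3 of the 13 were lower in AOC3-LN past the threshold and 4 higher, beside 8.69% and 7.58% of all genes, and the median was 0.38.

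Of 17 genes of nucleic acid sensing 16 had an entry and 14 passed the filter, 2 of them only through AOC11-LN. Of the other 12, 3 were lower in the AOC3 lines past the threshold and 1 higher, beside 6.0% and 5.1% of all genes. The higher one was Aim2, a sensor of cytosolic DNA, with 10.3 and 0.616 FPKM in AOC3 and AOC3-LN and 0.197 and 3.1 FPKM in AOC11 and AOC11-LN. Ddx58, the RNA sensor RIG-I, measured 4.4 FPKM (AOC3) and 1.38 FPKM (AOC3-LN) in mouse 3, 14.5 FPKM (AOC11) and 17.3 FPKM (AOC11-LN) in mouse 11, a difference of -2.15 between the mice. Zbp1, a sensor of Z-form nucleic acids, had 0.919, 0.0385, 0.503 and 6.19 FPKM and passed the filter only through AOC11-LN. Ikbke, a kinase that acts on IRF3 and IRF7, went from 21.9 FPKM in AOC3 to 3.97 in AOC3-LN, against 13.2 and 13.6 in AOC11 and AOC11-LN. The adaptor Mavs and the kinase Tbk1, which also acts on IRF3, had at least 15.6 and 13.6 FPKM in every line.

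Known targets of these factors were read in the same way. Of 30 listed ISGF3 targets 26 passed the filter, 8 of them only through AOC11-LN, so that these 8 had to be high there, and the counts that follow are of the other 18. Between the primary lines 4 were lower in AOC3 past the threshold and 1 higher, with a median of -0.43. Between the lymph node lines 16 were lower in AOC3-LN and 0 higher, with a median of -2.66. Within mouse 3, 9 were lower in AOC3-LN and 0 higher, and within mouse 11, 8 were higher in AOC11-LN and 0 lower. These counts stand beside 5.69%, 8.69%, 3.42% and 4.97% of all genes in the same directions. Ifi27 (-3.67), Bst2 (-3.60) and Ddx58 (-2.15) differed most between the AOC3 and AOC11 lines. Isg15, a ubiquitin-like protein, was at 4.4 FPKM in AOC3 and 0.411 in AOC3-LN, against 4.87 in AOC11 and 14.5 in AOC11-LN, again highest in AOC11-LN and lowest in AOC3-LN. It was named after its values were seen, like Oasl2 of the antiviral oligoadenylate synthetase family, which had 4.95, 0.138, 4.24 and 21.9 FPKM.

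Of 24 listed targets of GAS and IRF1 17 passed the filter, 5 of them only through AOC11-LN, and the counts that follow are of the other 12. Between the primary lines 5 were lower in AOC3 past the threshold and 0 higher, with a median of -0.92, and between the lymph node lines 11 were lower in AOC3-LN and 1, Socs1, was higher, with a median of -2.62. Within mouse 3, 3 were lower in AOC3-LN and 0 higher, and within mouse 11, 4 were higher in AOC11-LN and 0 lower. Beside the counts of 5, 11, 3 and 4, the shares of all genes in the same directions were 5.69%, 8.69%, 3.42% and 4.97%. Psmb8, an immunoproteasome subunit and known IRF1 target, reached 1.84 and 0.0516 FPKM in the mouse 3 lines AOC3 and AOC3-LN, and 9.07 and 24.7 FPKM in the mouse 11 lines AOC11 and AOC11-LN. Its primary lines were far apart and those of Irf1 were level, and the cause was not tested. Tap2, a subunit of the peptide transporter of antigen presentation, had 0.984, 0.103, 4.62 and 8.87 FPKM, and Psmb9 0.913, 0.132, 3.44 and 10.1. None of the genes on any of these lists had an adjusted p under 0.05 in limma, which at that threshold called 29 of all genes. The lists share Usp18, Ddx58, Ifih1, Dhx58 and Socs1 between them.

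**Figure D4:**
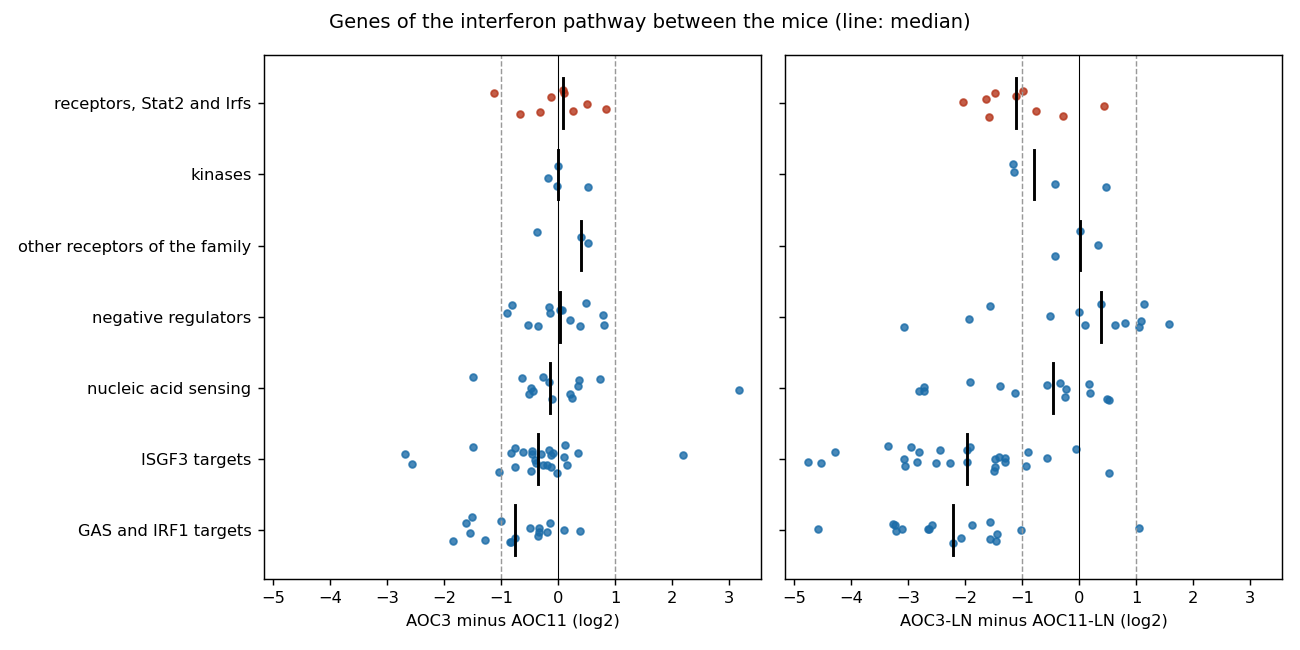
Log2 differences AOC3 minus AOC11 (left) and AOC3-LN minus AOC11-LN (right) for the 9 genes (red) and 6 other lists of the pathway (blue), where each point is a gene that passed the filter, those that passed it only through AOC11-LN included, the black line is the list's median and dashed lines mark 1 and -1. The median of the 9 genes was 0.08 on the left and -1.10 on the right, and those of the ISGF3 targets, with all 26 genes, -0.34 and -1.97.

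For the 5 genes whose range over the lines exceeded 1 log2 unit, as it did for 28.3% of all genes, the genes with the nearest profile were sought by Euclidean distance over the 4 line-centered log2 values. Nearest to Ifngr2 was Nfkb1, the NF-kappaB subunit p105, whose levels were 35.8 and 19.2 FPKM in AOC3 and AOC3-LN and 87.8 and 56.4 FPKM in AOC11 and AOC11-LN, at a distance of 0.10 log2 units. For Ifngr1 the nearest were Optn (0.05), Map3k14, the NF-kappaB-inducing kinase (0.11), and Serpinb9 (0.11). Irf1 had Vat1 (0.12) and the interferon-stimulated Parp14 (0.14) as nearest genes, and Irf7 had the antisense gene Gm19412 (0.07), Paqr7 (0.13) and Slc46a1 (0.13). Irf9 was nearest to B9d2 (0.07), Arhgef17 (0.09) and Lhpp (0.10). With 4 points per gene and 14165 genes, near profiles are common, and the distances are a description.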

How the data were processed

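RNA of 4 cultured lines was sequenced as stranded mRNA libraries, with 1 library per line and paired-end reads. The authors trimmed reads with Trim Galore, mapped them to mm10 with TopHat2 and estimated FPKM with Cufflinks on GENCODE M21 with default settings (tool versions not given in the sources used here), and deposited these FPKM values without log transformation. The default of these tools takes libraries as unstranded, but the sources used here do not name the library-type setting. If it was left at the default, reads from overlapping genes on opposite strands cannot be told apart.

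The 34721 entries were taken as log2(FPKM + 1), quantile-normalized with limma 3.58.1 in R 4.3.3, and kept at 1 FPKM or more in at least 1 line. A log2 difference past 1 was counted, and limma (lmFit, eBayes with trend, Benjamini-Hochberg) compared the AOC3 with the AOC11 lines. Depth was estimated from steps in low FPKM values of 9528 genes with 1 transcript, of which 72.0% to 75.2% lay within 0.1 of a whole multiple (20% by chance). Scripts were tested on simulated data. The 9 genes and the lists were chosen with earlier results of these data known. Named genes are the 9, the short lists (of which some genes are not reported here), among the 3 largest differences of longer lists, and the 3 nearest profiles; other names were chosen after their values were seen. Alternatives were another pseudocount, scaling, filter and threshold, protein-coding genes only, a site block, and leaving out each line. Counts without list genes that passed the filter only through AOC11-LN were added after seeing the data.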

Additional observations from a re-analysis of the deposited data

Results flagged for a closer look

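For 7 genes the lymph node line was below the primary line in mouse 3 and above it in mouse 11, so the shifts of the mice had opposite signs. The log2 difference of mouse 11 exceeded that of mouse 3 by 2.14 for Irf1 (-1.65 in mouse 3 and 0.50 in mouse 11), 1.52 for Irf7 (-0.73 and 0.80), 1.25 for Stat2 (-0.61 and 0.65) and 1.13 for Ifnar2 (-0.95 and 0.17). The excess was 0.93 for Irf9 (-0.38 and 0.55), 0.83 for Irf3 (-0.03 and 0.80) and 0.07 for Ifnar1 (-0.06 and 0.00). These differences between the mice were not tested, since each line is 1 library. For Ifnar1, and for Irf3 in mouse 3 and Ifnar2 in mouse 11, the FPKM ratio lay within counting error of 1, by the shortest transcript.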

How the results depend on the processing

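Counts of the 9 genes past the threshold depended on the threshold, the pseudocount and single lines. The shares of all genes given above are for the main setting. The counts under other settings have no such share beside them and only describe how the calls moved. Between AOC3-LN and AOC3 the count was 1, and became 3 with a pseudocount of 0.1, 3 without scaling between the lines and 6 at 1.5-fold. Between AOC11-LN and AOC11 it was 0, and became 1 (Irf7) with a pseudocount of 0.1, without scaling and with scaling by the median, and 3 at 1.5-fold. Between AOC3 and AOC11 it went from 1 to 3 at 1.5-fold, and between the AOC3 and AOC11 lines from 2 to 5. When 1 line at a time was left out, that last count ranged from 0 (without AOC3-LN) to 5 (without AOC3). The cause was not tested. Of the differences of single genes under the alternatives, 236 kept their side of the threshold, 17 came to pass it, 3 no longer passed it, and no value past it changed sign. Of values inside the threshold, that of Ifnar2 between the mice was -0.20 without AOC3 and that of Irf3 was 0.06 without AOC11-LN. With all 4 lines kept, limma gave 0 of the 9 genes at an adjusted p under 0.05 in each fit. The fit at 5 FPKM or more tested only 8 of them, without Irf7. The lowest adjusted p in these limma fits ranged from 0.123 (Irf9, protein-coding genes only) to 0.276 (Ifnar1, no filter). At an unadjusted p under 0.05 each of these limma fits gave 2 of the genes. Its calls over all genes were 29, and 33 with a pseudocount of 0.1, 30 without scaling, 41 with scaling by the median, 0 without a filter, 50 at 5 FPKM or more, 31 with site as a block, 256 among protein-coding genes and 0 to 4 with a line left out. The site block pairs the primary lines with each other and the lymph node lines with each other, and its lowest adjusted p for the 9 genes in limma was 0.16 (Ifngr2). By the shortest transcript, the values of Irf7 and Irf9 in AOC3-LN rest on the fewest fragments.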
